A study of Mus musculus with 6 samples.

Results

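The aminoacyl-tRNA synthetases, the enzymes that attach each amino acid to its tRNA, were examined in mouse bone marrow cells with and without Mn1. The family was taken as 36 listed genes, 20 of cytosolic enzymes and 16 of mitochondrial enzymes, and a gene was measured where the array had a probe set annotated to it alone, under its name or its name with a 1 added. Of the 36 genes, 35 were measured, 19 cytosolic and 16 mitochondrial, among 18193 genes on the array. All 35 passed the filter on low signal and were among the 14680 genes tested. Dars was not analysed here. Where a gene had several probe sets, the brightest over all 6 arrays was used.

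Cells of both groups expressed MLL-AF9, the leukaemia oncogene made by fusing MLL to AF9. In the MLL-AF9/Mn1null cells (Mn1null, n = 3) Mn1, which encodes a transcriptional cofactor, had been deleted with CRISPR-Cas9, and in the MLL-AF9/Mn1wt cells (Mn1wt, n = 3) it was intact. Per the labels, cells of both groups were sorted from mouse bone marrow, carried a control vector for EGFP, a green fluorescent protein, and grew with interleukin 3, interleukin 6 and stem cell factor in DMEM with fetal calf serum. The labels give neither the age, sex or strain of the mice, nor the guide, nor whether replicates came from separate animals, clones or cultures, so the p-values reflect how much these particular arrays varied, and that variation may be purely technical.

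Animal cells carry separate sets of these enzymes. One charges the tRNAs that serve the ribosomes of the cytosol, and the other, encoded in the nucleus by separate genes whose names end in 2, is imported into mitochondria and charges the tRNAs of the mitochondrial ribosome. Several cytosolic enzymes are held in a multi-synthetase complex by scaffold proteins. Transcripts of cytosolic synthetases are known targets of ATF4, the transcription factor of the amino acid response, and of MYC.

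Signals are log2 values per probe set made with RMA, a method that corrects background, equalises arrays and summarises probes. Array medians lay between 5.16 and 5.22, and signals correlated at 0.997 to 0.998 between arrays of a group and at 0.968 to 0.969 between groups. The single probe set of Mn1 read 4.21, 4.12 and 4.07 in Mn1null and 4.49, 4.12 and 4.44 in Mn1wt, near the filter level of 4.07, and did not pass the test (limma adjusted p = 0.121). Where it lies relative to the deleted stretch is not known here, so it checks nothing. All 13 markers of myeloid progenitors, among them Kit, Mpo and Hoxa9, lay at or above the median of all probe sets in both groups, and their mean signal was 10.82 to 10.84 in Mn1null and 10.80 to 10.84 in Mn1wt. That near-equal mean covers members that moved both ways: 5 of the 13 rose, among them Itgam (0.84), Cd34 (0.79) and Cd33 (0.69), and 6 fell, with Csf1r lowest at -1.50. Of 10 listed mast cell and basophil markers 9 were measured. Their mean was 8.57 to 8.59 in Mn1null, against 6.95 to 7.01 in Mn1wt. Of the 9, 6 rose, with Hdc (4.56) and Cpa3 (4.13) the most. Tpsb2 (-0.084), Tpsab1 (0.067) and Cma1 (-0.15) did not pass. Beside these marker counts, 23.2% of all genes tested were called higher and 25.6% lower. The mean of 5 measured erythroid markers was 5.51 to 5.65 in Mn1null and 5.17 to 5.25 in Mn1wt. Of the 4 tested, Klf1 (1.07) and Epor (0.43) rose, and Alas2 (-0.016) and Slc4a1 (0.27) did not pass. Hba-a1 lay under the filter. The mean of 7 stromal and endothelial markers was 5.78 to 5.82 in Mn1null and 5.35 to 5.38 in Mn1wt. Among them rose Pecam1 (10.84 in Mn1null and 9.06 in Mn1wt) and Pdgfrb (7.38 in Mn1null and 5.62 in Mn1wt). These 2 genes carry that higher mean: the other 4 tested, Col1a1, Col1a2, Cdh5 and Kdr, gave -0.060 to -0.18 and did not pass, and the median of the 6 was -0.098. B cell markers (4 measured) averaged 4.90 to 5.09 in Mn1null and 5.07 to 5.24 in Mn1wt. Of these, Cd79b fell (-0.91), Cd79a (0.18) and Pax5 (0.098) did not pass, and Ms4a1 lay under the filter. T and NK cell markers (6 measured) averaged 5.08 to 5.19 in Mn1null and 5.08 to 5.17 in Mn1wt.

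Most cytosolic synthetases that changed were lower in Mn1null. Of 19 measured, 10 fell (Hars, Farsb, Mars1, Rars, Gars, Iars, Kars, Yars, Cars and Tars), 2 rose (Sars and Qars) and 7 did not pass the test. The test was limma on all 14680 genes, as Mn1null minus Mn1wt, with a threshold of 0.05 on the Benjamini-Hochberg adjusted p. Among all genes tested it called 25.6% lower, 23.2% higher and 48.8% in either direction, so the share of cytosolic synthetases called lower, 52.6%, stood above that background, and the share called higher, 10.5%, below it. The median difference of the 19 genes was -0.18, against -0.0053 over all genes tested. The changes were moderate: 2 of the 19, Hars and Farsb, fell at least 1.5-fold (6.67% of all genes did), and 0 rose at least 1.5-fold (8.28% of all genes did). The 3 Mn1null values lay below all 3 Mn1wt values for 13 of the 19 genes, against 30.1% of all genes, and above them for 2, against 27.6%. In the same arrays the probe sets for bacterial labelling controls, RNAs meant to be added before labelling, read 6.42 to 6.53 in Mn1null and 7.21 to 7.41 in Mn1wt on the 8 that lie at the 5′ end. The gap was smaller toward the 3′ end, with a difference of -0.85 at the 5′ end, -0.49 in the middle and -0.30 at the 3′ end. The Gapdh probe sets differed by -0.021 (5′) and 0.013 (3′), and those of Actb by -0.081 (5′) and -0.092 (3′). These Gapdh and Actb signals lay between 14.20 and 14.61, where a probe set may be saturated. A difference there may go unseen, which was not tested. The 18 probe sets of the hybridisation controls averaged 11.12 to 11.22 in Mn1null and 11.19 to 11.34 in Mn1wt. The part that the labelling controls, or the mast cell markers above, play in the synthetase differences was not tested. In such bulk samples, less RNA per cell and fewer cells of a type cannot be told apart.

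**Figure D1:**
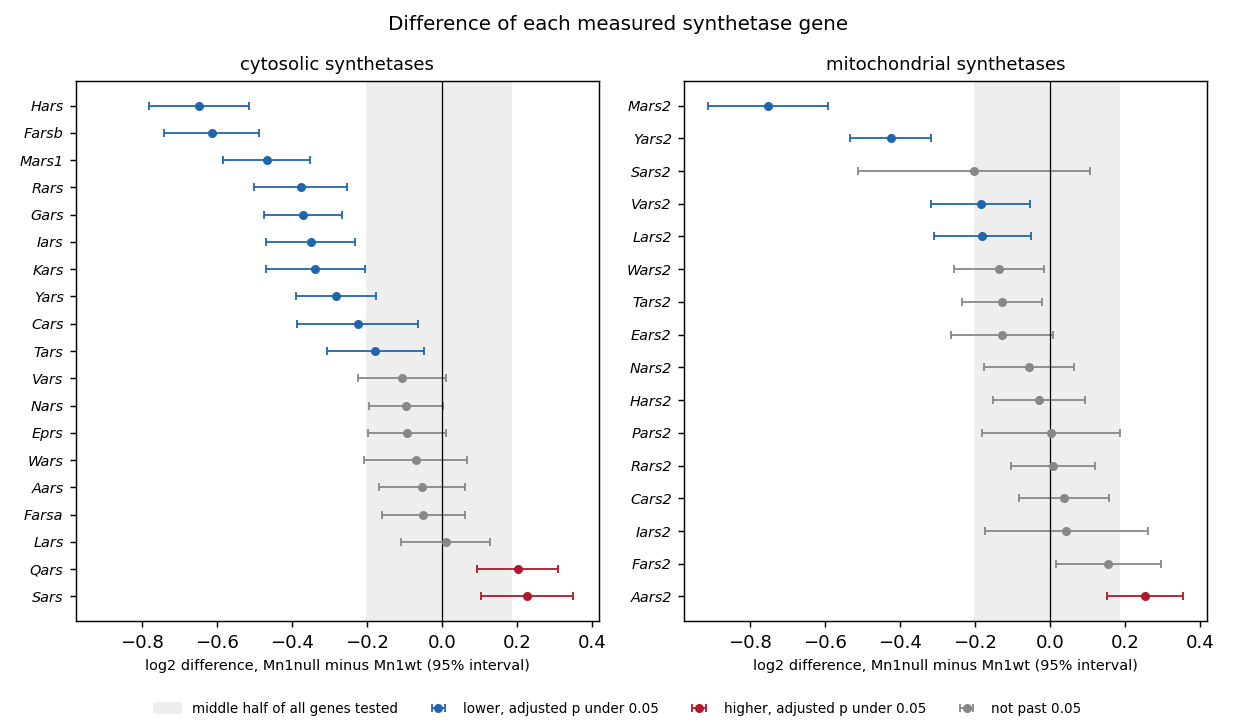
Log2 difference, Mn1null minus Mn1wt, of each of the 19 cytosolic and 16 mitochondrial synthetase genes (points) with limma's 95% interval (bars), coloured by call; the grey band spans the 25th to the 75th percentile of all genes tested (-0.20 to 0.19). The cytosolic points run from -0.65 (Hars) to 0.23 (Sars), with 10 called lower, and the mitochondrial points from -0.75 (Mars2) to 0.25 (Aars2), with 4 called lower.

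Hars, which charges the tRNA for histidine, had the largest fall of the cytosolic set. Its signal was 10.96, 10.86 and 10.87 in Mn1null and 11.53, 11.48 and 11.62 in Mn1wt. The groups were separated by more than the spread within either, and the difference was -0.65 ± 0.056 (SE; limma adjusted p = 9.37e-05), 1.57-fold lower. Farsb encodes the beta subunit of the enzyme for phenylalanine, which works as a complex of alpha and beta subunits. Its signal was 10.98, 11.11 and 10.96 in Mn1null, against 11.63, 11.63 and 11.63 in Mn1wt, and it fell by 0.61 ± 0.054 on the log2 scale (limma adjusted p = 9.75e-05), 1.53-fold. The Mn1wt arrays were nearly identical here (SD 0.0031). Mars1, the enzyme for methionine, which also charges the initiator tRNA, gave 11.02, 10.96 and 11.06 in Mn1null and 11.47, 11.45 and 11.52 in Mn1wt, without overlap, a difference of -0.47 ± 0.049 (limma adjusted p = 2.25e-04). Rars, the enzyme for arginine, gave 10.94, 10.92 and 11.06 in Mn1null and 11.33, 11.34 and 11.38 in Mn1wt, a difference of -0.38 ± 0.053 (limma adjusted p = 9.14e-04), again without overlap.

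Gars and Kars, for glycine and lysine, each make both the cytosolic and the mitochondrial enzyme from a single gene. Gars read 11.57, 11.58 and 11.64 in Mn1null and 11.96, 11.97 and 11.98 in Mn1wt (difference -0.37, adjusted p = 4.08e-04). Kars read 11.46, 11.34 and 11.50 in Mn1null and 11.75, 11.80 and 11.76 in Mn1wt (difference -0.34, adjusted p = 0.00213). Both fell without overlap of the arrays. Iars, for isoleucine, read 11.03, 11.08 and 11.06 in Mn1null and 11.41, 11.34 and 11.47 in Mn1wt (difference -0.35, adjusted p = 0.00102). Yars, for tyrosine, read 9.35, 9.43 and 9.43 in Mn1null and 9.67, 9.69 and 9.69 in Mn1wt (difference -0.28, adjusted p = 0.00177). In both genes every Mn1null array lay below every Mn1wt array.

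Cars and Tars, the enzymes for cysteine and threonine, fell by the smallest amounts that passed. Cars read 8.62, 8.75 and 8.84 in Mn1null and 8.91, 9.02 and 8.96 in Mn1wt, a difference of -0.22 ± 0.068 (SE; limma adjusted p = 0.0306). Tars read 10.98, 10.98 and 11.05 in Mn1null and 11.10, 11.22 and 11.22 in Mn1wt, a difference of -0.18 ± 0.054 (limma adjusted p = 0.0312). Both calls were lost without Mn1null replicate 1, without Mn1null replicate 2, without Mn1wt replicate 2 and without Mn1wt replicate 3, with adjusted p between 0.0657 and 0.0946 in limma, and 8 cytosolic genes were then called lower in place of 10. Averaging its probe sets also ended the call of Cars (adjusted p = 0.124), and that of Tars was lost after quantile normalization (0.0544).

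Sars and Qars were the cytosolic synthetases that rose. Sars, the enzyme for serine, gave 10.79, 10.82 and 10.88 in Mn1null and 10.55, 10.66 and 10.61 in Mn1wt, a difference of 0.23 ± 0.051 (SE; limma adjusted p = 0.00871). Qars, the enzyme for glutamine, gave 11.33, 11.29 and 11.38 in Mn1null and 11.11, 11.12 and 11.16 in Mn1wt, a difference of 0.20 ± 0.046 (limma adjusted p = 0.00884). In both genes each Mn1null array lay above each Mn1wt array, though the folds were small, 1.17 and 1.15. Other probe sets of these genes above the filter gave smaller differences in the same direction that did not pass, 0.12 for Sars and 0.15 and 0.15 for Qars, and the mean over the probe sets of Qars, 0.12, did not pass either (adjusted p = 0.102).

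For 7 cytosolic genes the test was not passed. Their intervals cover the brightest probe set only and do not bound the change of the gene. Other probe sets of Eprs and Wars, given below, fell by more and passed. Lars, the enzyme for leucine, read 11.22, 11.16 and 11.25 in Mn1null and 11.16, 11.18 and 11.25 in Mn1wt, with a difference of 0.011 (95% interval -0.11 to 0.13). Farsa, the alpha subunit for phenylalanine, read 11.01, 10.94 and 10.94 in Mn1null and 10.97, 11.03 and 11.04 in Mn1wt, with a difference of -0.049 (-0.16 to 0.062). Aars (-0.053, for alanine) and Wars (-0.069, for tryptophan) also overlapped between the groups. Eprs, whose product charges both glutamate and proline tRNAs, Nars, for asparagine, and Vars, for valine, were below Mn1wt in all 3 Mn1null arrays by 0.092, 0.095 and 0.11 on the log2 scale, with adjusted p of 0.128, 0.100 and 0.123 in limma. Nars and Vars were called lower when arrays were centred on their medians and with an intensity trend in limma, and Eprs with the trend. Cytosolic genes called lower then numbered 12 with centring and 13 with the trend. The count over all genes rose too, from 3757 to 4258 with centring and 4024 with the trend.

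**Figure D2:**
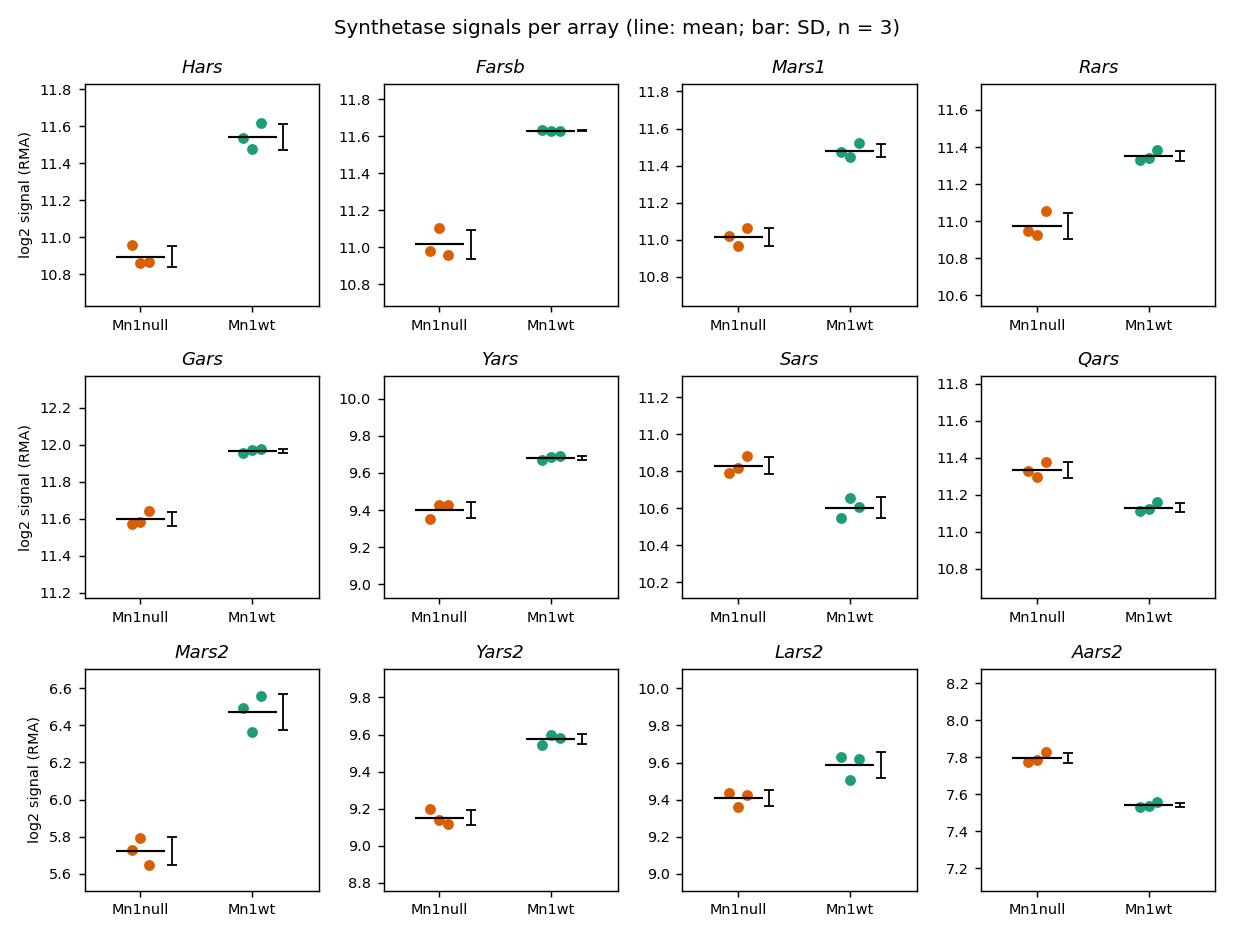
Log2 signal per array (points) of 8 cytosolic and 4 mitochondrial synthetase genes in Mn1null and Mn1wt, with group mean (line) and SD (bar, n = 3); every panel spans the same range of log2 units. Mn1null arrays lie below all Mn1wt arrays in 9 panels and above them for Sars, Qars and Aars2.

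Probe sets of a single gene may read different or shared parts of its transcripts, and their positions are not known here. For Hars and Farsb, the largest cytosolic falls, all probe sets moved alike. Of the called genes, 4 had another probe set called in the same direction. Gars, Kars, Mars1, Rars, Tars and Yars, all called lower, had 1 probe set each, so their calls rest on it alone. The same holds for Aars2, which was called higher. The 35 genes had 72 probe sets, and 34 probe sets other than the brightest, in 22 genes, passed the filter; 28 of these had the sign of the brightest and 6 the opposite. When limma was run on all 31526 probe sets above the filter, the 4 probe sets of Farsb fell by 0.61, 0.57, 0.51 and 0.36 on the log2 scale, the 2 of Hars by 0.65 and 0.56, the 2 of Iars by 0.35 and 0.20 and the 2 of Yars2 by 0.42 and 0.65, and all of these passed. The 4 probe sets of Farsa, the partner subunit of Farsb, gave -0.049, -0.11, -0.12 and -0.063, with adjusted p from 0.195 to 0.515. The probe sets of Eprs differed in size. Its brightest probe set gave -0.092, but the next read 10.23, 10.26 and 10.03 in Mn1null, against 10.70, 10.69 and 10.82 in Mn1wt, and fell by 0.56 (limma adjusted p = 0.00109). Another read 10.15, 9.99 and 9.87 in Mn1null and 10.50, 10.50 and 10.62 in Mn1wt and fell by 0.54 (limma adjusted p = 0.00184). The fourth probe set of Eprs gave 0.054 and did not pass. A weaker probe set of Wars fell by 0.22 (adjusted p = 0.0187) where its 3 others gave -0.069, -0.062 and -0.044.

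**Figure D3:**
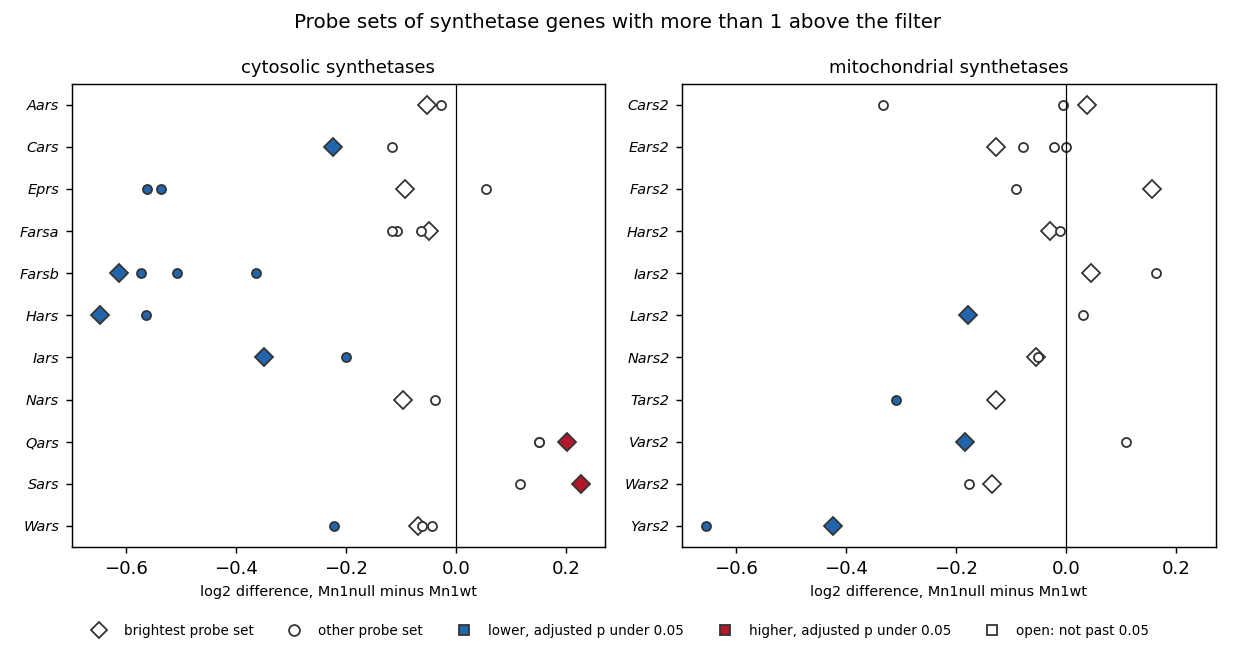
Log2 difference, Mn1null minus Mn1wt, of every probe set above the filter for the 22 synthetase genes with more than 1; diamonds mark the brightest probe set, filled symbols those with a limma adjusted p under 0.05 over all probe sets tested. The probe sets of Farsb and Hars lie together between -0.65 and -0.36, whereas those of Eprs spread from -0.56 to 0.054.

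Enzymes inside and outside the multi-synthetase complex both moved. Of 7 measured enzymes of the complex, 4 fell (Mars1, Rars, Iars and Kars), 1 rose (Qars) and 2 did not pass (Eprs and Lars), with a median of -0.34. Over all genes tested, 25.6% were called lower and 23.2% higher, and the same shares stand beside the counts of classes that follow. The genes of its 3 scaffold proteins, AIMP1, AIMP2 and EEF1E1, all fell. Aimp2 read 10.58, 10.58 and 10.66 in Mn1null and 11.13, 11.14 and 11.08 in Mn1wt, a difference of -0.51 ± 0.047 (SE; limma adjusted p = 1.32e-04). Aimp1 fell by 0.29 (adjusted p = 0.00107) and Eef1e1 by 0.24 (adjusted p = 0.00329), with no overlap between groups in either. By the 2 structural classes into which these enzymes divide, class I genes (5 of 9 lower, 1 higher, median -0.22) and class II genes (5 of 9 lower, 1 higher, median -0.18) gave the same counts. Eef1d, a subunit of the elongation factor complex with which the valine enzyme associates, read 12.07, 12.03 and 12.20 in Mn1null and 12.57, 12.63 and 12.70 in Mn1wt and fell by 0.54 (adjusted p = 3.92e-04). The other measured genes of that complex, Eef1a1 (0.059, adjusted p = 0.296) and Eef1b2 (0.039, adjusted p = 0.567), did not pass. Eef1a1 read 14.70 to 14.79, where a probe set may be saturated, which was not tested.

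Promoters were examined because several cytosolic members moved together. RefSeq promoters (GRCm38.p6, 250 bases before to 50 after the start, 300 bases each) were matched by gene ID for 26 of the 35 genes, with 27 promoters. They were searched on both strands for TGATGNAA, the composite element bound by ATF4 with C/EBP partners, and for CACGTG, the E-box bound by MYC and other factors. The first was present in 5 of 12 cytosolic promoters (Aars, Gars, Iars, Tars and Yars) and in 0 of 15 promoters of 14 mitochondrial genes, against 2.46% of the 14943 promoters of genes tested and 3.97% of all 32851. The E-box was present in 4 of 12 cytosolic promoters (Aars, Farsb, Iars and Tars) and in 1 of 15 mitochondrial promoters (Ears2), against 9.22% of the promoters of genes tested and 7.15% of all. Matches of the 2 motifs did not overlap in any of these promoters. A match describes letters in this window only, and the window holds no evidence of binding in these cells.

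The 4 cytosolic promoters with an E-box follow, 5′ to 3′ on the strand of the gene, to show the same letters in genes that fell (Iars, Tars and Farsb) and in a gene that did not pass the test (Aars). Capitals mark CACGTG, and TGATGNAA or its reverse complement. They lie at chr13:49681880-49682179 on the plus strand (Iars), chr15:11399609-11399908 on the minus strand (Tars), chr1:78488848-78489147 on the minus strand (Farsb) and chr8:111033592-111033891 on the plus strand (Aars).
Iars: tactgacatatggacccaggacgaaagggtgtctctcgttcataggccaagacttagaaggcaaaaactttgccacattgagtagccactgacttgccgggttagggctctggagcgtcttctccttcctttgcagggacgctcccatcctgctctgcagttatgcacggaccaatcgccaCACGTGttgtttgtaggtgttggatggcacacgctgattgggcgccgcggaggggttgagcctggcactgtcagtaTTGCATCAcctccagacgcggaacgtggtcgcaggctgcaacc
Tars: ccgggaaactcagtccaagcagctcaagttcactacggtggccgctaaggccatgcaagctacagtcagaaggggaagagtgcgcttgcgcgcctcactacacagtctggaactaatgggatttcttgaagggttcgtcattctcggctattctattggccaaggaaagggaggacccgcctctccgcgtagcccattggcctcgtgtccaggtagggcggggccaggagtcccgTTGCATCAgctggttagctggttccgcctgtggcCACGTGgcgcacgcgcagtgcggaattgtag
Farsb: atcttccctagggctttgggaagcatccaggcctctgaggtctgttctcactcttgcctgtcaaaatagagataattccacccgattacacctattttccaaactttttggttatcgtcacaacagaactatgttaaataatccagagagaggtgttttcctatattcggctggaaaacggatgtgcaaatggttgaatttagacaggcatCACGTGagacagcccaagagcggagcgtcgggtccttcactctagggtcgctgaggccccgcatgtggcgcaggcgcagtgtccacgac
Aars: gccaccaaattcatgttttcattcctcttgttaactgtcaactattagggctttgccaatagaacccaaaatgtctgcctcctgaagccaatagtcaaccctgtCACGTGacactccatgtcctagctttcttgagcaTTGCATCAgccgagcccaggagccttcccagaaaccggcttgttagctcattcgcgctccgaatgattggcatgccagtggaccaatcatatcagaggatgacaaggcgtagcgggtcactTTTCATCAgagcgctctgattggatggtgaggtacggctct

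In Iars and Tars a match to the ATF4 element lies close to the annotated start, and Aars holds 2 such matches. The Aars gene is annotated from chr8:111027778, so its window lies inside the gene, around a start other than the outermost. Of the 5 genes with that element, 4 were called lower and 1, Aars, did not pass; of the 5 genes with an E-box, 3 were called lower and 2, Aars and Ears2, did not pass. Of all 12 cytosolic genes whose promoters were searched, 7 were called lower. Among these 12, 4 of 5 with the ATF4 element and 3 of 4 with an E-box were called lower. With so few genes these shares cannot be told apart, and no test was run. The promoters of Kars and Mars1, which also fell, held neither motif in this window, and that of Hars was not searched.

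Mitochondrial synthetases were called lower about as often as genes in general. Of 16 measured, 4 fell (Mars2, Yars2, Vars2 and Lars2), 1 rose (Aars2) and 11 did not pass; the 25% called lower lay near the 25.6% among all genes, and the 6.25% called higher lay under the 23.2% among all genes. The median difference was -0.091, and 6 of the 16 lay below Mn1wt without overlap, against 30.1% of all genes. The difference between the compartments in the number called was not tested. The count of 4 was 2 without Mn1null replicate 1, 2 or 3 or Mn1wt replicate 3, each left out in turn, and 2 at a threshold of 0.01. The genes called in each of these settings were Mars2 and Yars2. In some other alternatives, given in the closing section, the count was 5 to 7.

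Mars2, the mitochondrial enzyme for methionine, had the largest difference of the family on the brightest probe sets. Its signal was also the lowest of the measured members, with means of 5.72 in Mn1null and 6.47 in Mn1wt, where array medians were 5.16 to 5.22. It read 5.73, 5.79 and 5.64 in Mn1null and 6.49, 6.37 and 6.56 in Mn1wt, a difference of -0.75 ± 0.067 (SE; limma adjusted p = 1.10e-04), 1.68-fold lower. The 3 Mn1null arrays were well below the 3 Mn1wt arrays. The other probe set of the gene lay under the filter, and the mean of both gave -0.41 (limma adjusted p = 2.62e-04), behind Hars (-0.61), Yars2 (-0.54), Farsb (-0.51) and Mars1 (-0.47) taken the same way. Yars2, for tyrosine, read 9.20, 9.14 and 9.12 in Mn1null and 9.55, 9.60 and 9.58 in Mn1wt and fell by 0.42 ± 0.046 on the log2 scale (limma adjusted p = 2.56e-04). Both genes fell in every alternative that gave them a value.

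Vars2 and Lars2, for valine and leucine, were near the threshold. Vars2 read 7.71, 7.66 and 7.72 in Mn1null and 7.84, 7.83 and 7.98 in Mn1wt (difference -0.18, limma adjusted p = 0.0298). Lars2 read 9.44, 9.36 and 9.42 in Mn1null and 9.63, 9.51 and 9.62 in Mn1wt (difference -0.18, limma adjusted p = 0.0291). The call of Vars2 was lost without any 1 of 4 arrays and that of Lars2 without any 1 of 5, and the next brightest probe sets gave 0.11 for Vars2 and 0.030 for Lars2, neither past the threshold. Averaged over its probe sets, Vars2 gave -0.038 (limma adjusted p = 0.627).

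Aars2, for alanine, was the mitochondrial gene that rose. It read 7.78, 7.78 and 7.83 in Mn1null and 7.53, 7.54 and 7.56 in Mn1wt, a difference of 0.25 ± 0.043 (SE, limma adjusted p = 0.00221). It was called in every alternative that gave it a value. The gene has 1 probe set, so alternatives in the choice of probe set could not change its difference. Just outside the threshold were Tars2, with 9.82, 9.80 and 9.84 in Mn1null and 9.90, 9.97 and 9.98 in Mn1wt (difference -0.13, adjusted p = 0.0537), Wars2, with 7.42, 7.54 and 7.52 in Mn1null and 7.61, 7.61 and 7.66 in Mn1wt (difference -0.14, adjusted p = 0.0628), and Fars2, with 8.79, 8.61 and 8.74 in Mn1null and 8.56, 8.54 and 8.58 in Mn1wt (difference 0.16, adjusted p = 0.0664). In these 3 genes the groups did not overlap. Each passed in some settings: a second probe set of Tars2 fell by 0.31 (adjusted p = 0.0222), and without Mn1null replicate 2 the rise of Fars2 was 0.21 (adjusted p = 0.0193).

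The remaining 8 mitochondrial genes overlapped between the groups. Sars2, for serine, had the widest interval of the family, with 7.47, 7.18 and 7.65 in Mn1null and 7.46, 7.75 and 7.70 in Mn1wt, and an interval of -0.51 to 0.11. Iars2 read 9.78, 9.68 and 9.82 in Mn1null and 9.53, 9.75 and 9.87 in Mn1wt. Ears2 gave a difference of -0.13, Nars2 of -0.055, Hars2 of -0.029, Cars2 of 0.038, Rars2 of 0.0093 and Pars2 of 0.0023. None of these 8 passed limma's test, and 0 of them had an unadjusted p under 0.05. Ears2 was called lower with median centring (adjusted p = 0.0279), and it was not called in its other alternatives.

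Enzymes of the same amino acid in the 2 compartments were set side by side. For each such pair the log2 ratio of the cytosolic over the mitochondrial signal was taken in each array and compared between groups by an exact permutation test (2-sided), which with 3 against 3 arrays cannot give a p under 0.1; 18 pairs were compared, including Farsb with Farsa. Fars2 and Eprs each stand in more than 1 pair. For histidine the ratio was 2.52, 2.50 and 2.42 in Mn1null and 3.14, 3.04 and 3.12 in Mn1wt, a change of -0.62 (exact p = 0.1, adjusted 0.15). Hars and Hars2 lie head to head on chromosome 18, at 36766528 to 36783205 and 36783202 to 36792562 (GRCm38.p6), so that their annotated starts overlap. Hars fell while Hars2 gave -0.029 (95% interval -0.15 to 0.093). For phenylalanine, the ratio of Farsb to Fars2 changed by -0.77 and that of Farsb to its partner Farsa by -0.56. The ratio of Farsb to Farsa was -0.026, 0.17 and 0.017 in Mn1null and 0.66, 0.60 and 0.59 in Mn1wt. The ratios of Rars to Rars2 and of Iars to Iars2 changed by -0.39 each, and that of Aars to Aars2 by -0.31.

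For other amino acids the ratio was higher in Mn1null. The ratio of Sars to Sars2 was 3.32, 3.63 and 3.24 in Mn1null and 3.09, 2.91 and 2.91 in Mn1wt, a change of 0.43, and that of Mars1 to Mars2 changed by 0.28, since Mars2 fell more than Mars1. Over the 17 pairs of compartments the ratio was below Mn1wt in all Mn1null arrays for 7, above for 4 and overlapping for 6. Among single genes, 57.7% had groups that did not overlap, which is near the 11 of 17 pairs, and the share among ratios of other genes was not measured. Non-overlapping pairs had the smallest exact p that the design allows, 0.1 (adjusted 0.15), so this test could not pass for any pair and the ratios are a description.

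**Figure D4:**
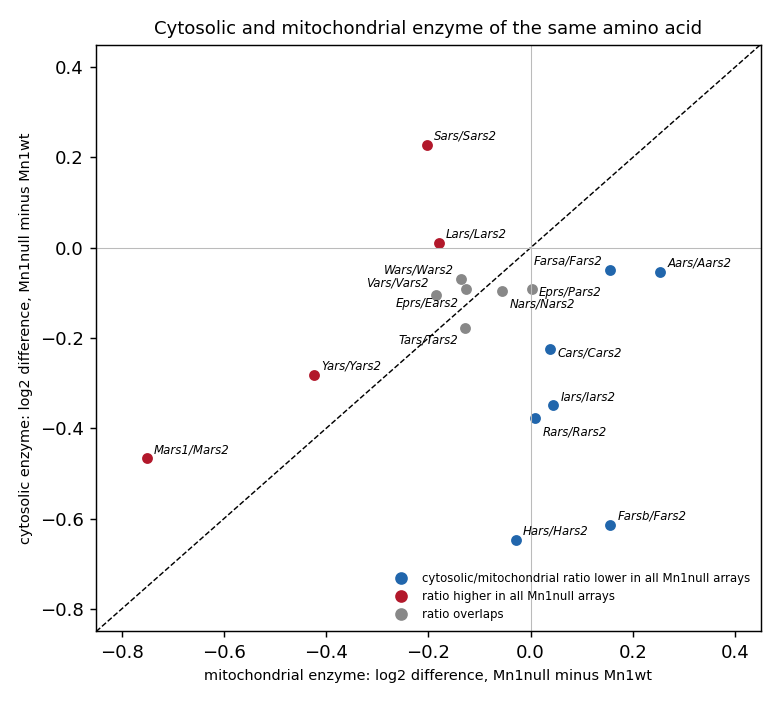
Log2 difference, Mn1null minus Mn1wt, of the cytosolic enzyme (vertical axis) against that of the mitochondrial enzyme of the same amino acid (horizontal axis) for 17 pairs; on the dashed line both are equal. Blue pairs, such as Hars and Hars2, had a lower cytosolic over mitochondrial ratio in all 3 Mn1null arrays (7 pairs), and red pairs, such as Sars and Sars2, a higher one (4 pairs).

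Most genes that make and modify tRNA were lower in Mn1null. Of 47 measured genes of tRNA maturation and modification, 35 fell, 3 rose and 9 did not pass. The 74.5% called lower compares with 25.6% of all genes, and the 6.38% called higher with 23.2%. The median of the 47 was -0.28, against -0.0053 over all genes tested. Adat2, the catalytic subunit of the adenosine deaminase that makes inosine in anticodons, fell by 0.92 ± 0.058 on the log2 scale (SE; limma adjusted p = 2.23e-05). Wdr4, which with Mettl1 forms the methyltransferase of guanosine in tRNA, fell by 0.84, and Mettl1 by 0.57. Aarsd1, an alanyl-tRNA editing protein gene, fell by 0.75, and Ctu2, which acts in the thiolation of wobble uridine, by 0.69. The 3 that rose were Tprkb (0.52 ± 0.062), Dtd2 (0.34) and Tsen15 (0.22). Tprkb encodes a subunit of the complex that makes the t6A modification, and Tsen15 a subunit of the tRNA splicing endonuclease.

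Partners of the mitochondrial tRNAs were also mostly lower. Of 10 measured, 7 fell and 3 did not pass. Their differences ran from -0.51 to -0.17, and the median was -0.25. Of all genes, 25.6% were called lower and 23.2% higher. In limma 0 rose, and with every difference below 0 the count at an unadjusted p under 0.05 was also 0. Gtpbp3 (-0.51) and Mto1 (-0.39), which act together in modifying the wobble uridine of mitochondrial tRNAs, were among those that fell, as was Hsd17b10 (-0.50), a subunit of mitochondrial RNase P. Qrsl1 (-0.32) and Gatc (-0.24) encode subunits of the amidotransferase that makes glutaminyl-tRNA in mitochondria, in place of a separate synthetase, and both fell. Gatb, the gene of its remaining subunit, gave -0.26 with overlapping groups and did not pass (adjusted p = 0.0606).

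**Figure D5:**
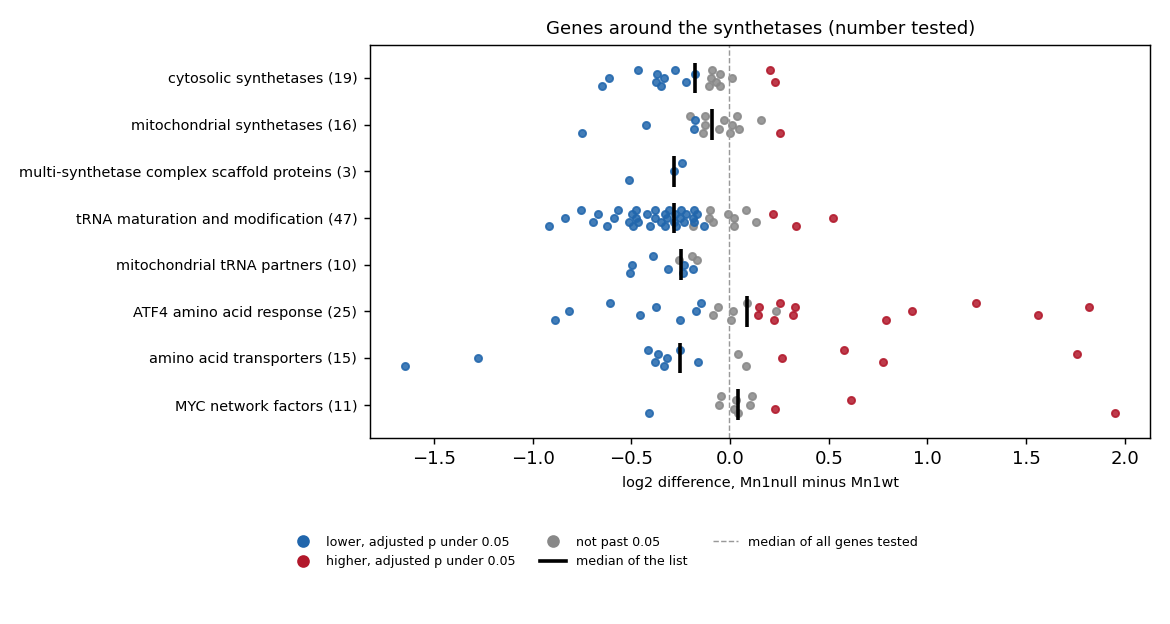
Log2 difference, Mn1null minus Mn1wt, of each tested gene (points, coloured by call) in the synthetase lists and 6 related lists, with the median of each list (black bar) and of all genes tested (dashed line). The points of tRNA maturation and modification lie mostly below 0 (35 of 47 called lower), whereas those of the ATF4 amino acid response spread to both sides (11 higher, 8 lower).

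Genes of the amino acid response moved in both directions. Of 25 measured ATF4 response genes, 11 rose, 8 fell and 6 did not pass. Their median was 0.085. The 44% called higher compares with 23.2% of all genes, and the 32% called lower is near the 25.6% of all genes. Atf4 itself read 12.56, 12.53 and 12.58 in Mn1null and 12.34, 12.36 and 12.30 in Mn1wt, a rise of 0.22 ± 0.044 (SE; limma adjusted p = 0.00454). The largest rises were those of the stress protein gene Nupr1 (1.82), the lipoprotein receptor gene Vldlr (1.56), Ddit4 (1.25), an inhibitor of mTORC1, and Sesn2 (0.92), a leucine sensor. Stc2 (-0.89), Cth (-0.82), the last enzyme of cysteine synthesis, the transcription factor gene Atf5 (-0.61) and Phgdh (-0.46), the first enzyme of serine synthesis, fell most. Asns, the asparagine synthetase that is a classical ATF4 target, fell by 0.17 (adjusted p = 0.0188).

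Most amino acid transporter genes were lower. Of 15 measured, 9 fell, 4 rose and 2 did not pass. Their median was -0.25. The 60% called lower compares with 25.6% of all genes, and the 26.7% called higher is near the 23.2% of all genes. Slc43a1 (-1.64), a carrier of large neutral amino acids, Slc7a11 (-1.28), the cystine carrier, Slc38a2 (-0.41) and Slc38a1 (-0.38), carriers of small neutral amino acids such as glutamine, fell most. Slc36a4 (1.76), Slc43a2 (0.78), Slc38a9 (0.58), an arginine sensor of the lysosome, and Slc3a2 (0.26), the shared heavy chain of several carriers, rose.

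Among 11 factors of the MYC network, 3 rose and 1 fell. The 27.3% called higher is near the 23.2% of all genes, and the 9.09% called lower lies under their 25.6%. Myc read 11.54, 11.51 and 11.69 in Mn1null and 11.40, 11.51 and 11.50 in Mn1wt (difference 0.11, limma adjusted p = 0.202), and Mycn read 14.65, 14.63 and 14.61 in Mn1null and 14.50, 14.55 and 14.53 in Mn1wt (0.10, adjusted p = 0.0923), so neither passed the test. The Mycn signal lay near the top of the range of these arrays, where a probe set may be saturated, so a difference there may go unseen, which was not tested. Genes of MXD and MXI1 proteins, which compete with MYC for its partner MAX, rose in 3 cases: Mxd4 read 9.84, 9.67 and 9.68 in Mn1null and 7.76, 7.65 and 7.93 in Mn1wt, a rise of 1.95 ± 0.084 (limma adjusted p = 3.84e-06), Mxd1 rose by 0.61 and Mxi1 by 0.23. Mxd3, of the same group, fell by 0.41 (adjusted p = 0.00627).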

How the data were processed

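The deposited files hold the authors' log2 signals for each probe set, and the submitters' processing notes name RMA without a version. RNA was extracted with Trizol and labelled with biotin after reverse transcription with a T7 primer, per the labels' protocols. Of 45101 probe sets, 64 controls were kept out of the tests; 34945 named 1 gene in the platform annotation, 932 named several and 9160 were not listed. The brightest probe set stood for each of 18193 genes, and 14680 genes with a mean at or above the 30th percentile of all probe sets (4.07) were tested 2-sided in limma 3.58.1 (lmFit, then eBayes; R 4.3.3), adjusted by Benjamini-Hochberg. Adjusted p-values of genes are those of this model, and those of probe sets from the same model over 31526 probe sets. The steps were also run on simulated data in which a much smaller share of genes changed than was called here. That run says little about the calls made here. The number of arrays limits precision.

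The members, lists, motifs and the rule for named genes were chosen with earlier results of these data known. Values in every array are given for the 4 cytosolic and 3 mitochondrial members with the largest called changes in each direction and those nearest the threshold; other members shown so (Gars, Iars, Kars, Yars, Lars, Farsa, Lars2, Fars2, Sars2, Iars2) and the other probe sets were chosen after their values were seen, as were the pairs of compartments. Of related lists, up to 4 genes per direction with the largest called changes are named, and Mettl1, Asns, Myc, Mycn, Gatb, Gatc, Atf4 and the marker genes were added after their values were seen. Alternatives covered the choice of probe set, filters, normalization, the variance model, array weights, leaving out each array, a replicate block and a stricter threshold (0.01). Dars was not analysed here.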

Additional observations from a re-analysis of the deposited data

How the results depend on the processing

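The direction of the median was negative for both compartments in all alternatives that gave one: with each array left out it ranged from -0.22 to -0.15 for the cytosolic and from -0.11 to -0.061 for the mitochondrial genes. Cytosolic genes called lower numbered 8 to 13 over all alternatives. With the mean of probe sets, or with probe sets without a suffix for shared targets taken first (which drops Qars), 1 cytosolic gene was called higher in place of 2. Mitochondrial genes called higher numbered 2 in place of 1 with a filter at the 50th percentile, with quantile normalization, with an intensity trend and with array weights, and 1 to 2 with arrays left out. Mitochondrial genes called lower numbered 7 with median centring, which moves every difference by -0.045. That centring called 4258 of all genes lower, against 3757 without it. The mitochondrial count was 6 with a filter at the 50th percentile and 5 with the mean of probe sets or an intensity trend. It was 2 at a threshold of 0.01, and 2 to 4 with arrays left out. Fewer samples are the construction of the last; the other causes were not tested.

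Signs turned, without passing the test in either setting, on another probe set for Cars2 (-0.0064) and Fars2 (-0.091), and with the mean of probe sets for Cars2 (-0.10). The called genes Lars2 (0.030) and Vars2 (0.11) also turned on another probe set, where neither passed. Median centring turned Lars (-0.034), Cars2 (-0.0074), Iars2 (-0.0011), Pars2 (-0.043) and Rars2 (-0.036), quantile normalization Pars2 (-0.0067) and array weights Rars2 (-0.0028). With single arrays left out, Lars ranged from -0.0099 to 0.038, Pars2 from -0.073 to 0.044, Rars2 from -0.016 to 0.038 and Iars2 from -0.049 to 0.12. With the replicate number as a block, 10 and 4 genes of the compartments were called lower and 2 and 1 higher, as without it, and 3296 genes in all were called higher and 3647 lower, against 3413 and 3757. Same-numbered arrays correlated at -0.039, 0.11 and 0.080 in their deviations from group means, so the numbers were not taken to pair the samples.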
